A study of Mus musculus with 12 samples.

Results

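The genes described here encode peptidases that work inside the lysosome: the cathepsins Ctsa, Ctsb, Ctsd, Ctsh, Ctsl, Ctss and Ctsz, the asparaginyl endopeptidase legumain (Lgmn), dipeptidyl peptidase 7 (Dpp7) and tripeptidyl peptidase 1 (Tpp1). They were taken by name, as lysosomal proteases, with earlier results of these data known, and are 10 of the 23479 genes in the deposited table. The libraries come from cultured cells of 1 B cell lymphoma of a C57BL/6 mouse that carried the transgenes Eµ-Myc, in which an immunoglobulin heavy chain enhancer drives Myc, and Eµ-rtTA. Both transgenes are therefore shared by all groups, as is culture with interleukin-7. Vector cells had received an empty retrovirus with a puromycin marker. TFEB cells had received the same kind of retrovirus with TFEB-ERT2 added, in which TFEB carries S211A, alanine in place of serine 211, and is joined to ER-T2, the estrogen receptor's hormone-binding part (human, mutated), which answers to 4-hydroxytamoxifen (4-OHT). Both lines were selected with puromycin, and lymph node is the source the labels give. The sources used here do not say whether the TFEB insert is of mouse or human sequence, or whether either line is 1 clone. Each line was given vehicle or 4-OHT for 4 days, with 3 libraries in each of 4 groups. The dose figure is 250, in nM by the treatment protocol and in ng/mL by the design text, so it is uncertain. The sources do not give the age of the mouse or say whether the replicates were separate cultures, so a p-value here reflects the spread among these libraries, which may be technical. Because 1 lymphoma was used, no result covers variation between tumours.

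Lysosomal peptidases are made as inactive precursors, carried to the lysosome mostly by mannose 6-phosphate receptors and activated by cleavage at acid pH. Their catalytic classes differ. Cathepsins B, H, L, S and Z are cysteine peptidases of the papain family, legumain is a cysteine peptidase of another family that cuts after asparagine, cathepsin D is an aspartic peptidase, and cathepsin A, Dpp7 and Tpp1 are serine peptidases. In B cells, cathepsin S is known for trimming the invariant chain from MHC class II molecules. TFEB is known to bind a short palindromic sequence, the CLEAR element, near the starts of lysosomal genes.

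The bases around the transcript starts are shown first because short sequences that share the E-box core of the CLEAR element, or differ from it in 1 base, recur near the starts of several of these genes. RefSeq promoter windows of 300 bases (250 before and 50 after each start, GRCm38.p6) were matched for 8 of the 10 genes, and Ctsb and Ctsh had no entry. Both strands were searched for TCACGTG (called type 1 here), TCATGTG (type 2), the 6-base E-box core CACGTG that type 1 contains, and a 10-base palindrome, that core with GT before it and AC after it, which contains type 1 as well. Matches that overlap were taken as 1 site. In the sequences below, written 5′ to 3′ on the strand of the gene, capitals mark the sites. Positions are counted from +1 at the RefSeq start.
Ctsa, chr2:164833750-164833772, plus strand, -23 to -1: gagcaaactgTCACGTGAtgcag
Ctsa, chr2:164833769-164833792, plus strand, -4 to 20: gcagatgcTCACGTGAccagagct
Ctsa, chr2:164833786-164833808, plus strand, 14 to 36: cagagctaCACATGActtccagt
Ctsd, chr7:142387909-142387936, minus strand, -109 to -82: cgcccgcgtcTCACGTGAcccgttgagg
Ctsd, chr7:142388056-142388077, minus strand, -250 to -229: tccccCACGTGAcctgtatcca
Dpp7, chr2:25356345-25356416, minus strand, -84 to -13: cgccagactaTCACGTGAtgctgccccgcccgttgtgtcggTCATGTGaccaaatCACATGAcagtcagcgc
Tpp1, chr7:105752207-105752236, minus strand, -1 to 29: catgcTCATGTGacttatCACATGActaca
Lgmn, chr12:102439126-102439152, minus strand, -60 to -34: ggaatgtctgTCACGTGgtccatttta
Ctss, chr3:95526796-95526818, plus strand, 11 to 33: tggatgctTCATGTGacaagctc
Ctsl, chr13:64370741-64370766, minus strand, -246 to -221: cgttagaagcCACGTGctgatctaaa

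Ctsa and Dpp7 had 3 sites of types 1 and 2 in 1 window, Ctsd and Tpp1 had 2, and Ctss and Lgmn had 1. Among all 32851 promoter windows, 7.4% held at least 1 such site, 0.557% at least 2 and 0.0731% at least 3. Type 1 stood in 3.77% of windows and type 2 in 3.77%, each counted with or without the other type. Tpp1 had type 2 sites only. Ctsl had the 6-base core without the flanking base, a core that 7.15% of windows held. The Ctsz window (chr2:174438990-174439289) had none of these letters. Ctsa and Lgmn each had another annotated start, and those windows (chr2:164832622-164832921 and chr12:102439679-102439978) had none either. The full 10-base palindrome, found in 0.326% of all windows, was in no window of these genes. A match is a description of the letters and says nothing of whether TFEB binds there.

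**Figure D1:**
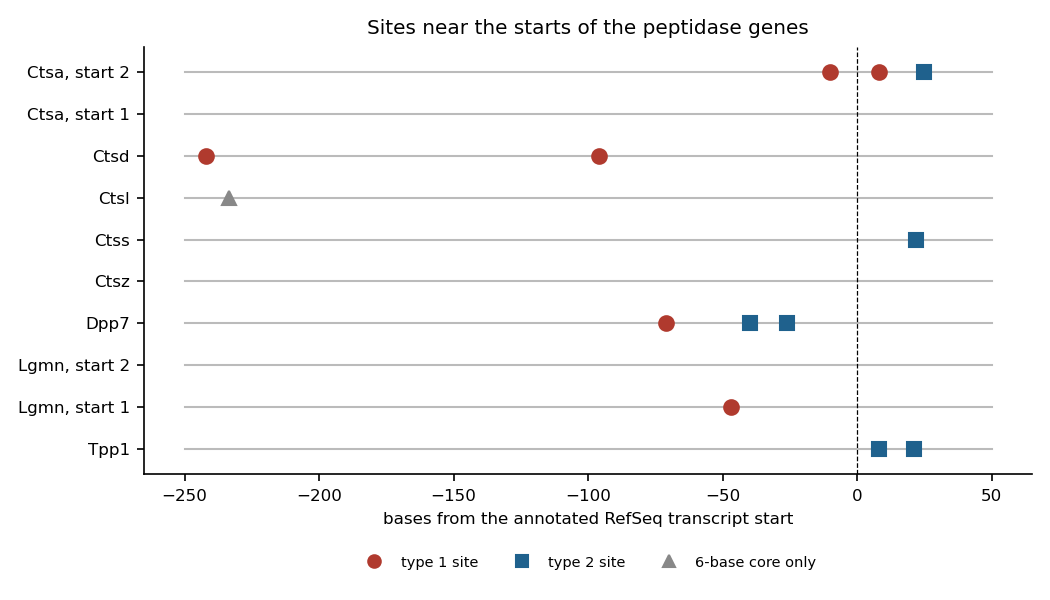
Positions of the sites in the RefSeq windows of 8 genes, in bases from the annotated transcript start (x axis), 1 line per annotated start. Circles are type 1 sites (TCACGTG), squares type 2 sites (TCATGTG) and the triangle the 6-base core alone; Ctsa and Dpp7 carry 3 sites within 1 window and Ctsz none.

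Reads counted to genes, as recovered from the deposited values, ran from 11849029 to 22109283 per library. The 13111 genes that reached 10 in 3 or more libraries were tested. Values are normalized counts, that is gene reads divided by 1 size factor per library, and ± is the SD over the 3 libraries of a group. Fold changes are from limma on the log2(value + 1) scale, with p-values adjusted by the Benjamini-Hochberg method over all 13111 genes and a threshold of 0.05. The number of genes with any read ran from 11390 to 19250 and differed within groups, with vector 4-OHT library 2 (19057) and TFEB 4-OHT library 2 (19250) above the rest. The labels of the lines were checked by Tfeb, which had 243 ± 17.7 normalized counts in vector cells in vehicle and 221 ± 23.4 in 4-OHT, against 1676 ± 249 in TFEB cells in vehicle and 665 ± 72.6 in 4-OHT. Tfeb thus fell with 4-OHT in TFEB cells (log2 -1.33 ± 0.15 SE, adjusted p = 2.49e-08, limma). It is no check of the treatment labels. Of 9 markers of the B lineage, all had group means above 1000 in every group, so the B lineage label was matched by its markers.

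With 4-OHT in TFEB cells, 7 of the 10 peptidase genes rose and none fell. Lgmn rose 7.15-fold, Dpp7 4.69-fold, Tpp1 2.64-fold, Ctsa 2.38-fold, Ctsd 2.19-fold, Ctsb 1.85-fold and Ctsz 1.47-fold. Ctss, the cathepsin of class II antigen presentation, did not pass, and Ctsh and Ctsl had almost no reads in any group. Of all tested genes, 27.5% passed in this comparison, 13.7% higher and 13.9% lower. The limma, edgeR and DESeq2 fits each called these 7 genes higher and 0 lower, and 0 were lower at an unadjusted p under 0.05. The median log2 change over the 8 genes that reached 10 in every library was 1.19, against 0.04 over all tested genes. The summed level of the 9 B lineage markers moved alongside, from between 53173 and 56818 in vehicle to between 33007 and 34974 in 4-OHT, and its part in these changes was not tested. All of these libraries are bulk RNA, in which fewer cells of a type and less RNA per cell cannot be told apart.

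**Figure D2:**
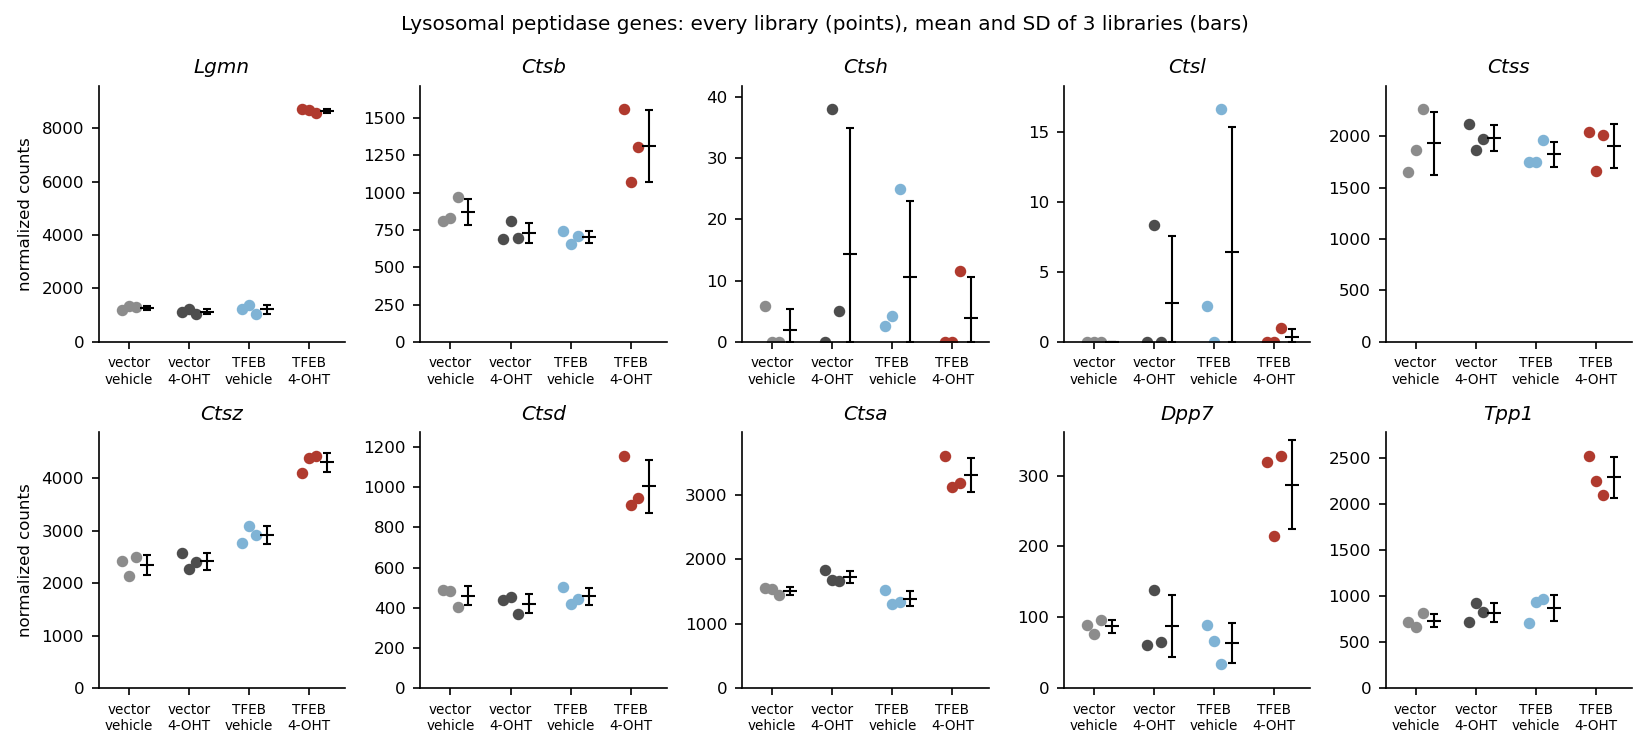
Normalized counts of each gene (y axis, from 0, with its own scale) in the 12 libraries by group. Points are libraries, and the bar beside them is the mean with the SD of 3 libraries, cut at 0; in 7 genes the TFEB 4-OHT libraries lie above all others, while Ctss overlaps in all groups and Ctsh and Ctsl are near 0.

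Legumain cleaves after asparagine and is known to process other cathepsins. Lgmn (chr12:102394084-102439813, mm10) had 8712, 8681 and 8569 normalized counts in the TFEB 4-OHT libraries. It had 1224, 1370 and 1053 in TFEB cells in vehicle, 1202, 1327 and 1299 in vector cells in vehicle, and 1123, 1223 and 1030 in vector cells in 4-OHT. The TFEB 4-OHT libraries stood far above the other 9, which formed 1 narrow band. The log2 change in TFEB cells was 2.84 ± 0.10 SE (adjusted p = 4.1e-20, limma), with a 95% interval of 6.23 to 8.21-fold. In vector cells it was -0.18 ± 0.10 SE (adjusted p = 0.812, limma), and the difference between the lines was 3.02 ± 0.14 SE (adjusted p = 1.38e-16, limma). The spread among the TFEB 4-OHT libraries was small, at 75.1 around a mean of 8654.

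Dpp7 removes dipeptides from the amino end of peptides. Dpp7 (chr2:25352276-25356359) had the lowest level per kb of exon of the genes that rose, with 25 to 338 reads in a library. Its normalized counts were 319.6, 214.3 and 327.9 in TFEB cells in 4-OHT against 90.0, 67.2 and 34.6 in vehicle. In vector cells they were 89.2, 77.1 and 95.8 in vehicle and 61.2, 138.8 and 65.1 in 4-OHT. The TFEB 4-OHT libraries did not overlap any other group, although vector 4-OHT library 2, one of the libraries with the most genes detected, was well above its own group. The log2 change in TFEB cells was 2.23 ± 0.38 SE (adjusted p = 2.35e-05, limma), and the wide 95% interval of 2.75 to 8.0-fold overlapped that of Lgmn. The difference between the lines was 2.31 ± 0.53 SE (adjusted p = 0.0021, limma).

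Tpp1 removes tripeptides and is the enzyme missing in a childhood form of neuronal ceroid lipofuscinosis. Tpp1 (chr7:105744811-105752235) had 2528, 2251 and 2097 normalized counts in TFEB cells in 4-OHT and 712.1, 942.3 and 970.4 in vehicle. Vector cells had 724.2, 669.7 and 816.9 in vehicle and 719.3, 923.0 and 824.3 in 4-OHT. All 9 libraries outside TFEB 4-OHT were below 1000, and those groups overlapped one another. The log2 change in TFEB cells was 1.40 ± 0.13 SE (adjusted p = 1.74e-10, limma), with a 95% interval of 2.21 to 3.15-fold, which lay below that of Lgmn.

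Cathepsin A is a carboxypeptidase that also protects the lysosomal sialidase and beta-galactosidase in a complex. Ctsa (chr2:164832873-164841032) had 3601, 3119 and 3179 normalized counts in TFEB cells in 4-OHT against 1527, 1301 and 1339 in vehicle. Vector cells had 1554, 1535 and 1444 in vehicle and 1829, 1673 and 1663 in 4-OHT. The groups of each line did not overlap, but the step in vector cells was small, at a log2 change of 0.19 ± 0.09 SE, and was not called (adjusted p = 0.802, limma). In vector cells, 10.8% of all tested genes had groups that did not overlap, and in TFEB cells 38%. The log2 change in TFEB cells was 1.25 ± 0.09 SE (adjusted p = 3.1e-12, limma), and the difference between the lines was 1.06 ± 0.13 SE (adjusted p = 3.14e-07, limma). Of its partners in the complex, Glb1, the beta-galactosidase, rose 2.15-fold (adjusted p = 3.07e-06, limma), whereas Neu1, the sialidase, went from 1459 ± 157 to 1704 ± 39.3 and did not pass (adjusted p = 0.087, limma). The response of Neu1 did differ between the lines (log2 0.43 ± 0.14 SE, adjusted p = 0.0298, limma). Both were named after their values were seen.

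Cathepsin D is the main aspartic peptidase of the lysosome. Ctsd (chr7:142375911-142388038) had 1155, 911.3 and 944.9 normalized counts in TFEB cells in 4-OHT and 504.7, 420.5 and 445.1 in vehicle. Vector cells had 490.4, 485.5 and 405.0 in vehicle and 440.1, 453.2 and 369.5 in 4-OHT, so that the other 3 groups overlapped. The log2 change in TFEB cells was 1.13 ± 0.15 SE (adjusted p = 2.39e-07, limma), and the 95% interval of 1.78 to 2.69-fold overlapped those of Tpp1 and Ctsa.

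Of the papain family genes, Ctsb and Ctsz rose in TFEB cells and Ctss did not pass. Cathepsin B acts both as an endopeptidase and as a peptidyl dipeptidase. Ctsb (chr14:63122462-63145923) had 1560, 1075 and 1310 normalized counts in TFEB cells in 4-OHT and 741.2, 658.4 and 707.8 in vehicle. Vector cells had 811.9, 830.2 and 971.9 in vehicle and 691.4, 807.9 and 695.8 in 4-OHT. The TFEB 4-OHT libraries were spread widely, at an SD of 243 around a mean of 1315, and all lay above the rest. The log2 change was 0.89 ± 0.13 SE in TFEB cells (adjusted p = 1.7e-06, limma) and -0.25 ± 0.13 SE in vector cells (adjusted p = 0.802, limma), a difference of 1.14 ± 0.18 SE (adjusted p = 1.77e-05, limma).

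Cathepsin Z is a carboxypeptidase that removes single residues. Ctsz (chr2:174427493-174439039) had 4097, 4378 and 4428 normalized counts in TFEB cells in 4-OHT and 2760, 3094 and 2917 in vehicle. Vector cells had 2417, 2140 and 2494 in vehicle and 2582, 2266 and 2413 in 4-OHT. TFEB cells in vehicle therefore lay between the vector cells and the TFEB cells in 4-OHT, without overlap. The log2 change with 4-OHT was 0.56 ± 0.09 SE in TFEB cells (adjusted p = 5.87e-06, limma), and its 95% interval of 1.30 to 1.66-fold overlapped that of Ctsb and lay below that of Ctsd. The difference between the lines was 0.51 ± 0.12 SE (adjusted p = 0.00271, limma). The call of this difference was lost without 3 gene-rich libraries (log2 0.41, adjusted p = 0.0664, limma). These were the libraries with the most genes in each group other than vector vehicle, namely vector 4-OHT library 2, TFEB vehicle library 1 and TFEB 4-OHT library 2.

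Ctss (chr3:95526786-95556403) had 2039, 1663 and 2016 normalized counts in TFEB cells in 4-OHT and 1754, 1749 and 1966 in vehicle. Vector cells had 1656, 1871 and 2263 in vehicle and 2120, 1863 and 1970 in 4-OHT. All 4 groups overlapped. The log2 change in TFEB cells was 0.06 ± 0.11 SE (adjusted p = 0.773, limma), with a 95% interval of 0.897 to 1.21-fold that lay below the intervals of the 7 genes that rose. The difference between the lines was 0.01 ± 0.15 SE (adjusted p = 0.982, limma).

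**Figure D3:**
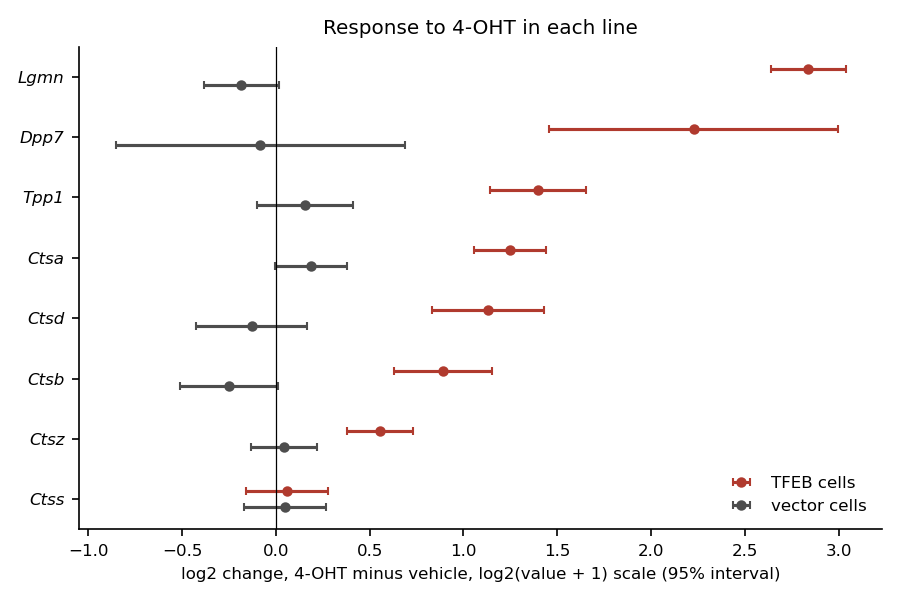
Log2 change from vehicle to 4-OHT (x axis, log2(value + 1) scale) of the 8 genes with at least 10 normalized counts in every library, in TFEB cells and in vector cells. Points are limma estimates and bars 95% intervals; in TFEB cells they run from 0.06 for Ctss to 2.84 for Lgmn, and in vector cells from -0.25 to 0.19.

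The remaining papain family members were at the limit of detection. Cathepsin L is an endopeptidase abundant in many other tissues. Ctsl (chr13:64359337-64370890) had no reads in 8 of the 12 libraries and at most 12 in any, and it was not tested. Its values above 0 were 8.31 in vector 4-OHT library 2, 2.57 and 16.6 in TFEB vehicle libraries 1 and 3, and 0.97 in TFEB 4-OHT library 3. Cathepsin H is an aminopeptidase. Ctsh (chr9:90054152-90076089) had no reads in 5 libraries and at most 32, and it entered the test only through 38.0 in vector 4-OHT library 2, 24.9 in TFEB vehicle library 3 and 11.6 in TFEB 4-OHT library 3. Those libraries belong to 3 different groups, and its log2 change in TFEB cells was -1.76 ± 1.64 SE (adjusted p = 0.51, limma). A count of 0 allows up to 3 reads, or 2.21 to 4.15 normalized counts depending on the library, for counting error only.

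Levels of different genes were compared per kb of exon (union of the exons in GENCODE M21 basic, mm10). In vector cells in vehicle the order was Ctsz (1631 ± 129 normalized counts per kb), Ctss (1421 ± 227), Lgmn (632 ± 32.4), Ctsa (411 ± 16.01), Ctsd (216 ± 22.6), Tpp1 (207 ± 20.9), Ctsb (184 ± 18.5) and Dpp7 (52.0 ± 5.63). Ctsz and Ctss overlapped there, as did Ctsd, Tpp1 and Ctsb in their neighbouring pairs. In TFEB cells in 4-OHT the order began with Lgmn (4288 ± 37.2 per kb), then Ctsz (2985 ± 124) and Ctss (1403 ± 155), and no neighbours among the first 8 overlapped. Lgmn thus moved from rank 3 in each of the other groups to rank 1, and its share of the summed level per kb was 38.5 ± 1.06% against 12.03 ± 1.49% in TFEB cells in vehicle. These ranks and shares rest on the exon lengths used, and the annotation used for counting is not known. Not divided by length, Ctsa stood above Lgmn in vector cells in vehicle (1511 against 1276) and in 4-OHT (1722 against 1125). The same held in TFEB cells in vehicle (1389 against 1216). The share of Ctss was 12.6 ± 1.11% against 26.8 ± 1.82%, although its level overlapped between the groups. The share of Ctsz was 26.8 ± 1.68% against 40.5 ± 1.38%, although Ctsz rose.

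**Figure D4:**
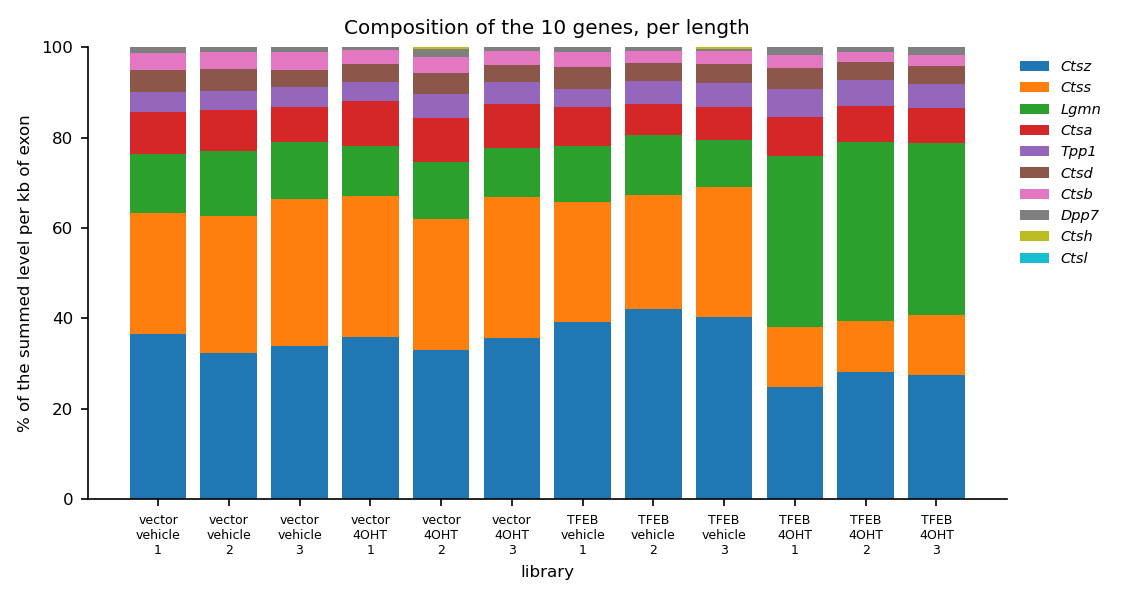
Share of each gene in the summed level per kb of exon of the 10 genes (y axis, %), 1 bar per library. Lgmn takes 37.8 to 39.7% in the TFEB 4-OHT libraries and 10.4 to 14.4% in the other 9, and Ctsh and Ctsl are barely visible.

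Summed over the 10 genes, normalized counts were 24011, 22292 and 22884 in the TFEB 4-OHT libraries. They were 9318, 9606 and 9475 in TFEB cells in vehicle, 8950, 8936 and 9790 in vector cells in vehicle and 9566, 9394 and 9036 in vector cells in 4-OHT. As a share of all reads counted to genes in a library this was 0.141 to 0.147% in TFEB cells in 4-OHT and 0.0538 to 0.0584% in the other libraries. The ratio of the group means was 2.44 in TFEB cells and 1.01 in vector cells.

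The other comparisons place these changes in the design. With 4-OHT in vector cells, none of the 9 tested genes passed in limma, edgeR or DESeq2, and none had an unadjusted p under 0.05. Of all tested genes 0.0153% passed there in limma, and the median log2 change of the 8 well-detected genes was -0.02 against 0.03 over all genes. In vehicle, TFEB cells differed from vector cells in Ctsz alone, which was 1.25-fold higher (adjusted p = 0.0246, limma), where 5.38% of all genes passed, 2.89% as higher and 2.49% as lower. Ctsb had groups that did not overlap, as 21.6% of all genes did, but was not called (log2 -0.31 ± 0.13 SE, adjusted p = 0.182, limma). The Ctsz call was lost with edgeR (adjusted p = 0.073), without the variance trend (0.126) and with only the groups compared (0.0554). It was also lost without vector vehicle library 2 (0.176) or TFEB vehicle library 2 (0.103) or 3 (0.0511). Its adjusted p ran from 0.00211 to 0.176 over the 24 alternatives.

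In 4-OHT, TFEB cells exceeded vector cells in the same 7 genes, a comparison that shares its TFEB 4-OHT libraries with the one within TFEB cells. Here 27.1% of all tested genes passed, 13.6% as higher and 13.5% as lower, and 39.1% had groups that did not overlap, as those 7 genes did. The fold differences were 7.70 for Lgmn, 3.41 for Dpp7, 2.79 for Tpp1, 2.38 for Ctsd, 1.91 for Ctsa, and 1.78 for both Ctsb and Ctsz. In the test of the difference in response between the lines, those 7 genes passed, all with a higher response in TFEB cells, against 15.8% of all genes, 7.75% with a higher and 8.01% with a lower response. Ctss and Ctsh did not pass.

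Some exons of these genes overlap exons of neighbours, and the sources used here do not say whether reads were counted by strand. Ctsa overlaps Neurl2 and Pltp, Ctsb overlaps Fdft1 and Ctsz overlaps Nelfcd, each on the opposite strand. Ctsd overlaps Gm49369 on its own strand, and Ctsl overlaps Gm49230 on its own strand and Gm47123 on the opposite one, and these 3 genes were not analysed here. In TFEB cells Neurl2 went from 60.9 ± 18.6 to 45.6 ± 12.98 and Pltp from 13.2 ± 12.9 to 38.8 ± 4.59, neither past the threshold (adjusted p = 0.705 and 0.0582, limma). Fdft1, an enzyme of sterol synthesis, fell (log2 -0.48 ± 0.15 SE, adjusted p = 0.0165, limma) while Ctsb rose. Nelfcd, a subunit of the negative elongation factor, rose (log2 0.33 ± 0.11 SE, adjusted p = 0.0295, limma).

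Lysosomal peptidases outside the 10 genes formed a further list, chosen, like the lists after it, with earlier results of these data known. Of 10 such genes, 7 were tested, 4 rose in TFEB cells and none fell (also none by edgeR, DESeq2 or at an unadjusted p under 0.05), with a median log2 change of 0.81 against 0.04 over all genes. Among all tested genes, 13.7% were called higher and 13.9% lower. Napsa, which encodes the aspartic peptidase napsin A, rose 5.24-fold from 1963 ± 64.2 to 10286 ± 530 normalized counts (adjusted p = 6.15e-19, limma). Prcp, a prolylcarboxypeptidase, rose 2.10-fold from 498 ± 135 to 1024 ± 64.3. Ctsc, or dipeptidyl peptidase 1, which activates granule proteases, rose 1.75-fold from 1087 ± 30.8 to 1908 ± 135, and the carboxypeptidase gene Scpep1 rose 1.66-fold from 639 ± 109 to 1049 ± 32.5. In these 4 genes the response also differed between the lines.

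Cystatins are small proteins that block cysteine cathepsins. Of 7 cystatin genes, 4 were tested, 2 rose and 1 fell in TFEB cells, beside 13.7% higher and 13.9% lower among all tested genes. Cst7, which encodes cystatin F, an inhibitor that itself enters the lysosome, rose 13.1-fold from 267 ± 97.1 to 3366 ± 128 normalized counts (adjusted p = 2.28e-12, limma). Its level in vector cells was 117 ± 46.1 in vehicle and 77.1 ± 33.5 in 4-OHT. In vehicle, Cst7 was already 2.30-fold higher in TFEB than in vector cells (adjusted p = 0.00569, limma). The other changes with 4-OHT in TFEB cells were smaller. Cstb, the mostly cytosolic cystatin B, rose 1.46-fold (adjusted p = 0.037, limma), and Cst3, the secreted cystatin C, fell 1.25-fold (adjusted p = 0.0172, limma). The Cstb call was lost without the variance trend (adjusted p = 0.0754), without any 1 of the 6 TFEB libraries (0.0519 to 0.179) and without the 3 gene-rich libraries (0.0617). The Cst3 call was lost without the variance trend (0.0605), without TFEB vehicle library 1 (0.0972), TFEB 4-OHT library 1 (0.0652) or 2 (0.0799), and without the 3 gene-rich libraries (0.223).

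Another list holds genes that sort, activate or accompany the peptidases. Of 16, 9 rose and 1 fell in TFEB cells, with a median log2 change of 0.89, beside 13.7% higher and 13.9% lower among all tested genes. Grn, the precursor of the lysosomal granulins, rose 4.84-fold from 874 ± 143 to 4200 ± 78.2 normalized counts. Nagpa, the enzyme that uncovers the mannose 6-phosphate tag, rose 2.55-fold, Psap, the saposin precursor, rose 2.52-fold, and Gnptab, a subunit of the enzyme that starts the tag, rose 2.47-fold (adjusted p of 5.25e-09 or less for these 4, limma). In vehicle, Psap was lower in TFEB than in vector cells (4692 ± 490.5 against 6265 ± 506.7, adjusted p = 0.0027, limma). Against vector cells in 4-OHT, TFEB cells were 2.22-fold higher for Psap. The gene that fell with 4-OHT was Gga2, a sorting adaptor named after its values were seen, at 1.48-fold lower (adjusted p = 1.52e-04, limma). Other acid hydrolases, which degrade sugars, lipids and nucleic acids, gave 13 rises and 1 fall among 26 tested of 28, with a median log2 change of 0.58. The same shares of all tested genes, 13.7% higher and 13.9% lower, stand beside these counts. Sgsh rose 6.54-fold, Galns 5.80-fold, Manba 4.52-fold and Gla 4.05-fold, all of which act on glycans or glycolipids. Sgsh and Galns were lower in TFEB than in vector cells in vehicle (18.7 ± 0.637 against 70.2 ± 23.2, adjusted p = 0.0286, and 350.1 ± 98.9 against 531 ± 21.1, adjusted p = 0.0117, limma). Against vector cells in 4-OHT, the TFEB cells were 2.84-fold higher for Sgsh, 4.06-fold for Galns, 2.51-fold for Manba and 4.38-fold for Gla. The gene that fell was Ppt1, a palmitoyl thioesterase named after its values were seen, at 1.36-fold lower (adjusted p = 5.68e-05, limma).

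Of 11 genes of the class II pathway, in which cathepsin S acts, 10 were tested, 2 rose and 2 fell, beside 13.7% higher and 13.9% lower among all tested genes. Their median log2 change was 0.01 against 0.04 over all genes. The invariant chain gene Cd74 rose 1.51-fold from 1496 ± 322 to 2240 ± 324 (adjusted p = 0.00442, limma), and H2-Aa rose from 45.4 ± 13.6 to 139 ± 45.9 (adjusted p = 0.0161, limma). H2-Ab1 fell 1.85-fold (adjusted p = 7.84e-04, limma) and H2-Ob, a subunit of the class II modulator DO, fell 2.497-fold from 916 ± 78.9 to 367 ± 41.1. Of these 4 genes, the response differed between the lines only in H2-Ob (log2 -0.93 ± 0.21 SE, adjusted p = 0.00193, limma). In vector cells Cd74 went from 623 ± 115 to 880 ± 250 and H2-Aa from 24.5 ± 7.23 to 41.4 ± 14.9, and the difference between the lines was 0.12 ± 0.22 SE for Cd74 (adjusted p = 0.835), 0.87 ± 0.70 SE for H2-Aa (adjusted p = 0.509) and -0.73 ± 0.28 SE for H2-Ab1 (adjusted p = 0.0793, limma). Cd74 was already 2.39-fold higher in TFEB than in vector cells in vehicle (adjusted p = 1.97e-06, limma). The Cd74 call with 4-OHT was lost with DESeq2 (adjusted p = 0.0503), without the variance trend (0.109) and without TFEB vehicle library 2 (0.0546). The H2-Aa call was lost with no filter (0.0679), without TFEB vehicle library 1 (0.0585) or TFEB 4-OHT library 3 (0.102), and without the 3 gene-rich libraries (0.11).

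In vector cells no gene of these 5 lists passed in limma, edgeR or DESeq2. At an unadjusted p under 0.05 in limma there were 0 of the other peptidases, 2 lower cystatins, 3 higher and 2 lower sorting genes, 1 higher and 1 lower class II genes, and 1 lower acid hydrolase.

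**Figure D5:**
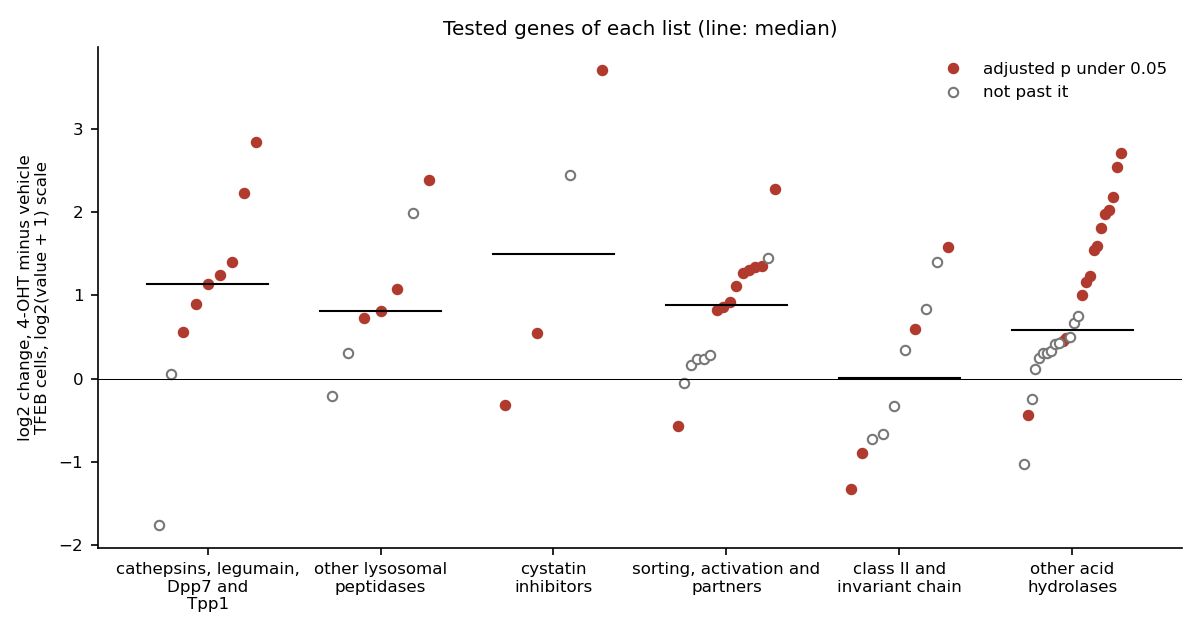
Log2 change from vehicle to 4-OHT in TFEB cells (y axis, log2(value + 1) scale) of the tested genes in each list. Filled points passed an adjusted p of 0.05 in limma, open points did not, and lines are medians; 7 of the 9 tested genes of the first column lie above 0 and passed.

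By likeness over the 12 libraries (Pearson's r of log2(value + 1), among 7787 tested genes whose mean was 200 or more), the genes near to Lgmn included Osbpl8, a lipid transfer protein (r = 0.996), and Mxd1, a MAX partner (0.996). The nearest to Ctsd were Pik3ip1 (0.986), the proline dehydrogenase gene Prodh (0.982) and the mannosidase gene Man2b2 (0.981). These values describe a step between the TFEB 4-OHT libraries and the other 9, which lie in separate clusters, and all genes share the same libraries and size factors. The nearest to Ctsl were Med10 (0.836), Polr2d (0.816) and Fam222b (0.807), which describe little, since 8 of the 12 values of Ctsl are 0.

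Markers of other cell types were looked at because macrophages and dendritic cells are rich in cathepsins. Of 12 macrophage markers, 10 stayed below 50 normalized counts in every library, and their sum was 114 to 129 in vector cells in vehicle and 132 to 221 in 4-OHT. In TFEB cells, the summed level of these markers was 169 to 242 in vehicle and 91.2 to 239 in 4-OHT, with 1 of the 5 tested called lower and none higher by limma. Mrc1 made up most of that sum in vehicle, with a mean of 145.5, but not in 4-OHT, with a mean of 34.5. Without Mrc1, the means of the other 11 summed to 20.9 and 48.3 in vector cells in vehicle and 4-OHT, and to 59.9 and 108 in TFEB cells. Among them Csf1r went from 12.3 to 29.2 in TFEB cells, Itgam from 10.2 to 31.99 (at most 77.5 in any library) and Mpeg1 from 2.30 to 13.1. Marco went from 3.14 to 7.31, Cd14 from 2.30 to 5.16 and C1qc from 0 to 3.23. The means of the rest were lower in 4-OHT: C1qb went from 9.22 to 1.29, C1qa from 4.37 to 2.80, Fcgr1 from 8.05 to 6.68, Adgre1 from 5.99 to 5.60 and Lyz2 from 2.00 to 1.72. Lyz2 and Cd14 reached at most 6.00 and 15.5 in any library. The 8 dendritic cell markers summed to 16.01 to 148 in vehicle and 12.9 to 160 in 4-OHT, with Batf3 at 0 in every library. Neutrophil markers summed to at most 104 and T and NK cell markers to at most 73.6 in any library of TFEB cells. Stromal and endothelial markers summed to 868 to 872 in vehicle and 698 to 932 in 4-OHT, most of it from Pecam1. Of the 9 B lineage markers, 7 fell and 2 rose in TFEB cells with 4-OHT, while their sum in vector cells was 54546 to 57334 in vehicle and 54583 to 62322 in 4-OHT. The part of these markers in the results was not tested.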

How the data were processed

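RNA of 12 libraries (total RNA, made into libraries with a NuGEN Ovation kit, per the labels' protocols) was measured in 4 groups of 3. The deposited signal values are normalized counts, which the authors made by dividing reads per gene by 1 size factor per library. The file's values show this: 100% of the values of every library came out as whole reads within 0.001. STAR 2.5.3, HTSeq 0.6.1, DESeq2 1.6.3 and mm10 are named per the submitters' processing notes; the sources used here do not give their roles, the annotation, filters or strand. The annotation used here for lengths and loci was GENCODE M21. A ribosomal RNA gene, Rn45s, took 4.13 to 6.93% of the reads counted to genes.

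Genes with at least 10 in at least 3 libraries (13111 of 23479, with 1395 at 0 in all libraries) were fitted with limma 3.58.1 (R 4.3.3) on log2(value + 1) of the deposited values, with 4 group means, a variance trend and 8 residual degrees of freedom. The limma, edgeR and DESeq2 fits were also run on simulated counts, with the same setting of the spread for every gene. The outcome of that run is not given, and no result here rests on it. Group contrasts, and the difference in response between the lines, were adjusted over all tested genes by Benjamini-Hochberg at 0.05. Alternatives were edgeR 4.0.16 and DESeq2 1.42.0 on the recovered reads, upper-quartile scaling, pseudocounts of 0.5 and 10, no filter or a minimum of 50, no variance trend, array weights, only the groups compared, the replicate number as a block, each library left out, and the 3 gene-rich libraries left out together. Those 3 are the libraries with the most genes in each group other than vector vehicle. All libraries were used. Reads counted to genes were 11849029 to 22109283 per library. Libraries of a group differed by more than counting error (chi-square per degree of freedom of 7.88 to 25.5), so precision rests on the spread between libraries, and floors cover counting error only.

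All 10 peptidase genes are named, with Tfeb as the check of the labels of the lines. From each other list up to 4 genes past the threshold were named, those with the largest absolute log2 change with 4-OHT in TFEB cells, and for Lgmn, Ctsd and Ctsl the 3 genes with the highest Pearson r. For Lgmn, 1 of these is not reported here. The members and lists were chosen with earlier results of these data known.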

Additional observations from a re-analysis of the deposited data

Results flagged for a closer look

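The response to 4-OHT differed between TFEB cells and vector cells, by the test of that difference itself (limma, adjusted over all tested genes), in 7 of the 9 tested peptidase genes. Of all tested genes, 15.8% differed, 7.75% with a higher and 8.01% with a lower response in TFEB cells. The difference in log2 response, TFEB minus vector cells, was 3.02 for Lgmn, 2.31 for Dpp7, 1.26 for Ctsd, 1.24 for Tpp1, 1.14 for Ctsb, 1.06 for Ctsa and 0.51 for Ctsz. The other lysosomal peptidase genes Napsa (2.44), Prcp (0.90), Scpep1 (0.80) and Ctsc (0.76) differed in the same direction. Of the cystatin genes, Cst7 differed by 4.32 and Cstb by 1.14. Among the genes of sorting and activation the values were 1.96 for Grn, 1.57 for Psap, 1.12 for Gnptab and 1.09 for Nagpa. Among the other acid hydrolases they were 3.31 for Sgsh, 2.66 for Galns, 2.21 for Manba and 2.00 for Gla. The response was lower in TFEB cells for Tfeb itself (-1.19) and for the class II gene H2-Ob (-0.93). It was also lower for the sorting gene Gga2 (-0.63) and the acid hydrolase gene Ppt1 (-0.54), both named after their values were seen.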

How the results depend on the processing

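Under 24 alternatives, 1469 of 1518 recomputed values of single genes kept their direction and their side of the threshold, and 325 of 358 counts of calls stayed within 1.5 times the main count. In part of these alternatives the direction could not change, because the log2 estimate stays the same. Such alternatives change only the filter, the variance trend, the block or the groups fitted, or leave out a library outside the comparison. There only the side of the threshold was open to change. The 7 rises in TFEB cells and the 7 higher levels against vector cells in 4-OHT were called in every alternative, and the differences in response between the lines in all but that of Ctsz given above. The 22 values that changed sign were all far from the threshold (smallest adjusted p = 0.764). With array weights the log2 change of Ctsh was 0.10 in TFEB cells and 0.41 between the lines in 4-OHT, and that of Ctsd between the lines in vehicle was 0.0332. With DESeq2 the change of Dpp7 in vector cells was 0.00867. With 1 library left out, the change in vector cells ran from -0.0547 to 0.171 for Ctss, -0.0229 to 0.0896 for Ctsz and -0.457 to 0.127 for Dpp7, and the difference in response of Ctss from -0.111 to 0.115. Between the lines in vehicle it ran from -0.167 to 0.0227 for Lgmn, -0.177 to 0.0484 for Ctss and -0.0994 to 0.0476 for Ctsd, and in 4-OHT from -0.114 to 0.0331 for Ctss.

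The number of all genes called in vector cells was 2, and it was 0 with edgeR, upper-quartile scaling, a pseudocount of 0.5, a minimum of 50, no variance trend or only the groups compared. It was 48 with DESeq2, 42 with array weights, 36 without the 3 gene-rich libraries, and 0 to 51 with 1 library left out, 51 without vector 4-OHT library 2 and 25 without vector vehicle library 1. Between the lines in vehicle, 705 genes were called, against 1224 with DESeq2, 259 with no variance trend, 1125 with array weights and 433 to 826 with 1 library left out; it was 433 without vector vehicle library 3 and 440 without vector vehicle library 2. The single peptidase call there, Ctsz, became 0 with edgeR, no variance trend or only the groups compared, and 0 to 1 with 1 library left out. The cause of these changes was not tested.

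The deviations of samples that share a replicate number had r of -0.522 to 0.0292 within TFEB cells, -0.23 to 0.184 within vector cells, -0.152 to 0.142 between the lines in vehicle, and 0.344, 0.671 and 0.0771 between the lines in 4-OHT, where the number 2 libraries are the ones with the most genes. In no comparison did every pair exceed 0.1, so the main fit did not pair samples by number. Whether samples of the same number were handled together, in 4-OHT above all, is not known from these values. With the replicate number as a block, 3601 genes were called in TFEB cells, 2 in vector cells and 2094 for the difference in response. Between the lines, 723 genes were called in vehicle and 3548 in 4-OHT. Of the peptidase genes 7, 0, 7, 1 and 7 were called, in that order. Among the 80 results, no value of a single gene changed its direction or its side of the threshold. Each count of calls stayed within 1.5 times the main count. Ctsh and Ctsl had at most 32 and 12 reads in a library, too few to show a change, and the SE of Dpp7 was the largest among the 7 genes that rose.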
